A study of Meloidogyne incognita with 75 samples.

Results

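The 7 libraries titled male in a set of 75 single-worm RNA-seq libraries of Meloidogyne incognita fell into 3 with a very high level of the transcript Mi_25779.1 and 4 with a low one. The libraries were selected on the level of Mi_25779.1 in CPM (the count of a transcript scaled to a fixed library total), with a threshold of 10000 CPM. Male replicates 2, 3 and 4 lay above it and are called the high males below, and male replicates 1, 5, 6 and 7 lay under it and are called the low males. The library nearest to the threshold from above was male replicate 3, at 54826 CPM, and the nearest from under it was male replicate 1, at 199.9 CPM, so no male was close to the threshold. These levels carry no test, and neither does any other transcript compared between the 2 kinds, because the same libraries made the split. An exact comparison of 3 against 4 libraries could not have reached p = 0.05 in any case.

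Meloidogyne incognita is the southern root-knot nematode, an obligate parasite of plant roots. Juveniles hatch from the egg, invade a root and pass through several moults, in each of which a new cuticle is laid down under the old one and the old one is shed. Reproduction does not need males, and a male, once formed, is worm-shaped, does not feed and leaves the root, whereas the female stays in it and swells.

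Each library came from 1 animal that was picked under the microscope, placed in a stage by its morphology, punctured and lysed, after which its messenger RNA was reverse transcribed. The males were set beside 14 libraries of J4_moulting, 5 of pre_J2, 8 of J4, 8 of J4_female, 14 of J3, 12 of par_J2 and 7 of female. Only for pre_J2 do the labels name a source, eggs incubated in vitro. All male libraries carry the stage tag J4_male. Whether these animals had completed the last moult is not stated, nor do the labels name a strain, host, age in days or sequencing batch. Every library is 1 individual, so a p-value below measures the spread between these individuals, and any batch that goes with a stage or with the 2 kinds of male cannot be told apart from it. Fewer cells of a type and less RNA per cell cannot be told apart in whole animals. The files give identifiers but no gene names or sequences, so transcripts are described by their levels alone, and a transcript with a near-identical copy elsewhere in this polyploid genome may have shared reads with it.

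Depth did not separate the kinds. The high males held 21489224, 24435831 and 23920853 counts, and the low males held 27648667, 18995649, 21700514 and 17927727. Male replicate 4 stood apart in detection, with 18969 transcripts at 1 count or more, against 26686 and 27786 in the other high males and 24872 to 28988 in the low males. The gap stayed after every library was thinned to 3000000 counts, with 17351 transcripts in male replicate 4 and 22955 to 26786 in the other 6. Where a count of non-overlapping transcripts moved by more than 1.5 times when a male was left out, the value without that male is given beside it. The 50 most abundant transcripts held 40.6, 33.6 and 35.03% of the counts of the high males and 27.3, 17.5, 16.9 and 17.5% of those of male replicates 1, 5, 6 and 7.

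A small set of transcripts took a large part of the high male libraries. In the order of male replicates 2, 3 and 4, Mi_25779.1 stood at 97776, 54826 and 76545 CPM. In the order of male replicates 1, 5, 6 and 7 it stood at 199.9, 21.5, 13.3 and 20.5 CPM. No second transcript of the gene Mi_25779 is listed. Mi_42693.2 followed it at 85128, 56707 and 63226 CPM in the high males and 86.3, 14.5, 11.7 and 1.95 CPM in the low males. The other named transcript of the same gene, Mi_42693.1, stood at 822, 559 and 454 CPM in the high males, at 2.24 CPM in male replicate 1 and at 0 in the other 3. Mi_25788.1 stood at 63967, 51992 and 58909 CPM against 105, 19.7, 14.3 and 10.5 CPM, and Mi_17692.2 at 40851, 49513 and 60341 CPM against 444, 45.6, 34.7 and 34.3 CPM. Male replicate 1 was the highest of the low males for all 5, but the lowest high male was still 91.9 times above it for Mi_17692.2, 490 times for Mi_25788.1 and 650 times for Mi_42693.2 on the CPM + 1 scale. Mi_25779.1, Mi_42693.2, Mi_25788.1 and Mi_17692.2 were the only transcripts above 50000 CPM in any male. Together they held 28.8, 21.3 and 25.9% of the counts of male replicates 2, 3 and 4, and 0.0835, 0.0101, 0.00740 and 0.00673% of those of male replicates 1, 5, 6 and 7.

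The same 4 transcripts were measured in the other stages, which the split did not use. All 5 pre_J2 libraries held high levels of each, with 1456 to 3475 CPM of Mi_25779.1 (median 2721). In J4_moulting the median of Mi_25779.1 was 160 CPM and the range 11.6 to 5015 CPM, the highest library being J4_moulting replicate 7. In J4_female the median was 123 CPM and the highest library, J4_female replicate 8, stood at 6269 CPM. Female had the lowest levels, with a median of 1.66 CPM and a highest value of 53.7 CPM. For Mi_25779.1 the low males thus lay inside the ranges of J4_moulting and J4_female and below every pre_J2 library. The high males lay above the highest library of every other stage for all 4 transcripts.

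**Figure D1:**
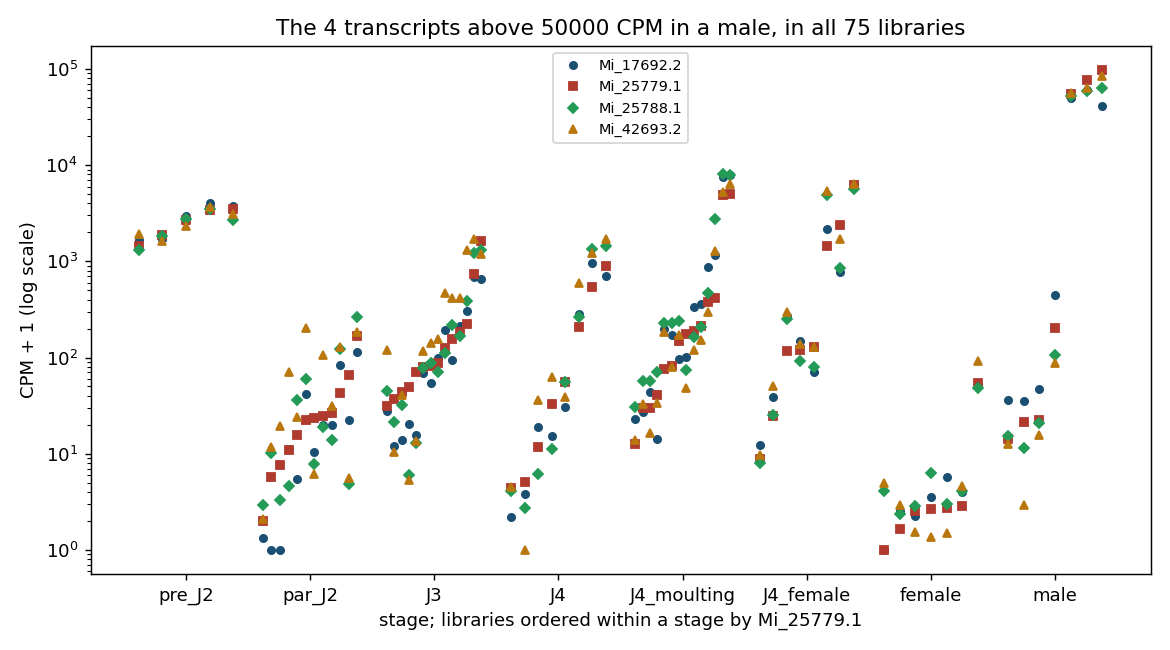
Levels of Mi_25779.1, Mi_42693.2, Mi_25788.1 and Mi_17692.2 in all 75 libraries (CPM + 1, log axis), with the libraries of a stage in order of Mi_25779.1 and 1 symbol per transcript. The 3 high males lie at 40851 to 97776 CPM, above all other libraries, and the 4 transcripts lie close together within most libraries, pre_J2 included.

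Transcripts that moved with Mi_25779.1 were sought in the 14 J4_moulting libraries, none of which entered the split. The 5 with the highest Pearson correlation of log2(CPM + 1) over these libraries, 1 per gene, were Mi_42693.2, Mi_17692.2, Mi_25788.1, Mi_20094.1 and Mi_24043.1. Their correlations were 0.95, 0.95, 0.93, 0.84 and 0.77. J4_moulting replicates 7 and 10 held 5015 and 4919 CPM of Mi_25779.1 and no other J4_moulting library more than 410 CPM, so these libraries weigh heavily. The first 3 of the 5 transcripts were those that are abundant in the high males. Mi_20094.1 and Mi_24043.1 overlapped between the 2 kinds, at 28.8 to 66.4 CPM in the high males and 29.8 to 94.7 CPM in the low males for Mi_20094.1. Of the 100 transcripts with the highest correlation, 10 lay above all low males in every high male and 9 lay below. Among the 10 were Mi_42693.2, Mi_17692.2, Mi_25788.1 and Mi_42693.1, a second transcript of the same gene as Mi_42693.2. Counted over all transcripts in the same way, 3.18% lay above and 18.4% below. The 9 became 20, 15, 30 and 21 without male replicates 1, 3, 4 and 7 (20.4, 15.3, 30.6 and 21.4% of those compared). Over all transcripts 25.5, 23.8, 28.9 and 24.3% lay below in these settings.

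Across the transcriptome, 24151 transcripts other than Mi_25779.1 reached a mean of 1 CPM over the 7 males. Libraries of the 2 kinds did not overlap for 769 transcripts that were higher in the high males, 3.18% of those compared, and for 4434 that were lower, 18.4%. Without male replicate 4 the counts were 1703 and 7028 of 24344 transcripts compared. The imbalance between the directions depended on the scaling. The median log2 ratio of the kind medians over all 24151 transcripts was -0.76 on the CPM + 1 scale. With TMM factors the median was -0.11 and the counts were 1423 higher and 1841 lower, and with DESeq2 size factors they were 1613 and 1655. With the 4 most abundant transcripts taken out of the library total, a setting chosen after seeing the data, the counts were 1111 and 2800.

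A stricter rule asked in addition that the nearest libraries of the 2 kinds differ at least 4-fold in CPM + 1. It left 165 transcripts higher in the high males, 0.683% of those compared, and 352 lower, 1.46%. With TMM factors the lists held 220 and 246 transcripts, and all 165 and 246 of the 352, respectively, were shared with them. These factors were 0.651 to 0.913 in the high males and 1.02 to 1.38 in the low males. They raise every high male against every low male, so this sharing follows from the scaling. Without male replicate 4 the lists grew to 435 and 413, without male replicate 1 the lower list grew to 653, and without male replicate 3 to 537. The median ratio between the nearest libraries was 9.89 for the higher list and 7.86 for the lower list. The 165 transcripts belonged to 162 genes and the 352 to 347 genes.

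**Figure D2:**
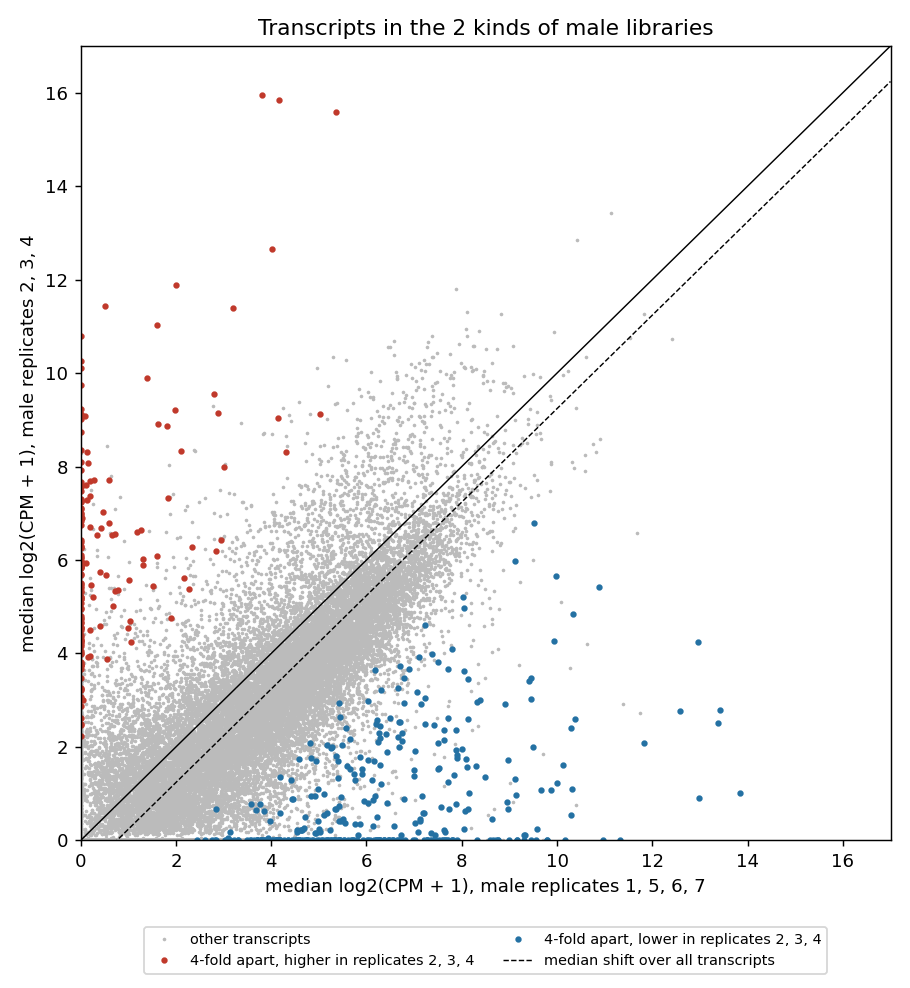
Median log2(CPM + 1) in the 4 low males (x axis) and in the 3 high males (y axis) of 24151 transcripts, 1 point each. Red points are the 165 transcripts whose nearest libraries differ at least 4-fold with the high males above, blue points the 352 with the high males below, the solid line marks equality and the dashed line the median shift of -0.76.

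After Mi_42693.2 and Mi_25788.1, the transcripts with the widest separation in favour of the high males had almost no reads in the low males. Mi_40609.1 stood at 1985, 1776 and 458 CPM in male replicates 2, 3 and 4 and had no read in any low male, which with a floor of 3 counts for the low males together makes them at least 39943-fold lower. Mi_27800.1 stood at 872, 514 and 291 CPM and likewise had no read in a low male, at least 15751-fold lower. Mi_12990.1 stood at 1097, 1287 and 221 CPM (at least 24832-fold). Mi_19220.1 stood at 466.5, 324 and 178 CPM (at least 9137-fold) and Mi_23385.1 at 788, 604 and 164 CPM (at least 14668-fold), both also without a read in the low males. Mi_22675.1 was the highest of this group, at 2774, 3379 and 574 CPM against 1.12, 0.579, 0.276 and 0.223 CPM in the low males. Mi_05206.2 stood at 861, 1321 and 230 CPM, with 0.39 CPM in male replicate 7 and no read in the other low males. Mi_31005.1 stood at 785, 183 and 273 CPM, with 3 counts in male replicate 5 and none in the other low males, a pooled ratio of 11480 with a 95% exact counting interval of 3928 to 55670. Male replicate 4 was the lowest high male for 7 of these 8 transcripts, at 164 to 574 CPM in those 7.

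Most of these transcripts had a second place of expression in pre_J2. Mi_40609.1 had a median of 202 CPM in pre_J2 and no J4_moulting library above 0.351 CPM (edgeR J4_moulting against pre_J2, log2 fold change -13.53, SE 0.94, adjusted p = 8.45e-10). Mi_23385.1 had a median of 229 CPM in pre_J2 and of 0.114 CPM in J4_moulting (-9.32, SE 1.17, edgeR adjusted p = 9.06e-06). Mi_05206.2 (71.0 CPM), Mi_27800.1 (47.2 CPM) and Mi_12990.1 (40.2 CPM) had lower pre_J2 medians, and all 3 were called higher in pre_J2 than in J4_moulting, as 7.94% of all transcripts tested were. Mi_22675.1 and Mi_31005.1 did not follow this, with a median of 0 CPM in pre_J2. Mi_19220.1 was at 1.78 CPM in pre_J2 and reached its highest non-male median in female, at 16.2 CPM. A single J4_female library, replicate 8, carried 7 of these 8 transcripts at 73.6 to 1708 CPM, while the medians over the 8 J4_female libraries ran from 0 to 2.64 CPM for the same 7. In that library Mi_22675.1 stood at 1708 CPM, Mi_40609.1 at 822 CPM and Mi_12990.1 at 799 CPM.

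The transcripts with the widest separation in favour of the low males showed the opposite arrangement. Mi_25698.2 stood at 740, 2271, 2784 and 1713 CPM in male replicates 1, 5, 6 and 7 and had no read in a high male, so with the same floor for the high males these were at least 41755-fold lower. Mi_05407.1 stood at 650, 1004, 450 and 880 CPM against at most 0.286 CPM in a high male, and Mi_40403.1 at 365, 906, 427 and 834 CPM against at most 0.279 CPM. Mi_06983.1 was the most abundant of them in 3 low males, at 19492, 10551 and 18857 CPM in male replicates 5, 6 and 7, but at 728 CPM in male replicate 1. In the high males it stood at 1.63, 1.02 and 0.334 CPM. Mi_34481.1 stood at 1052, 1499, 576 and 1557 CPM against at most 2.33 CPM. Mi_33663.1 at 157 to 338 CPM, Mi_30187.1 at 156 to 657 CPM and Mi_36833.1 at 131 to 329 CPM had no read in any high male. Mi_26066.2 also had none there, and it spread widely among the low males, at 15588 CPM in male replicate 1 and 604, 128 and 1173 CPM in male replicates 5, 6 and 7. Mi_15108.1 had the same highest library, at 2363 CPM in male replicate 1 against 403, 155 and 437 CPM, and 1 count in the high males together. Male replicate 1 was thus the highest low male for some of these transcripts and the lowest for others.

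Outside the males, 8 of these 10 transcripts were called higher in J4_moulting than in J4, as 5.09% of all transcripts tested were. The 2 that did not pass were Mi_26066.2 (5.69 on the log2 scale, SE 2.17, edgeR adjusted p = 0.110) and Mi_30187.1 (1.12, SE 0.86, edgeR adjusted p = 0.489). The J4_moulting medians were 160 CPM for Mi_05407.1, 134 CPM for Mi_40403.1, 250 CPM for Mi_34481.1 and 162 CPM for Mi_33663.1, with log2 fold changes over J4 of 7.35, 7.57, 7.18 and 5.54 (edgeR adjusted p between 4.82e-05 and 0.00155). Mi_26066.2 had a J4_moulting median of 2078 CPM and a highest library of 23743 CPM, so male replicate 1 lay inside the range of the J4_moulting libraries and the high males at its lower end. Levels in J4_moulting were lower for the remaining transcripts other than Mi_06983.1, which had a median of 233 CPM. The medians were 12.2 CPM for Mi_15108.1 and 17.2 CPM for Mi_36833.1, each with no read in 3 J4_moulting libraries, and 5.90 and 5.52 CPM for Mi_25698.2 and Mi_30187.1. Mi_25698.2 had no read in any pre_J2, par_J2, J3, J4, J4_female or female library, nor in 6 J4_moulting libraries.

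**Figure D3:**
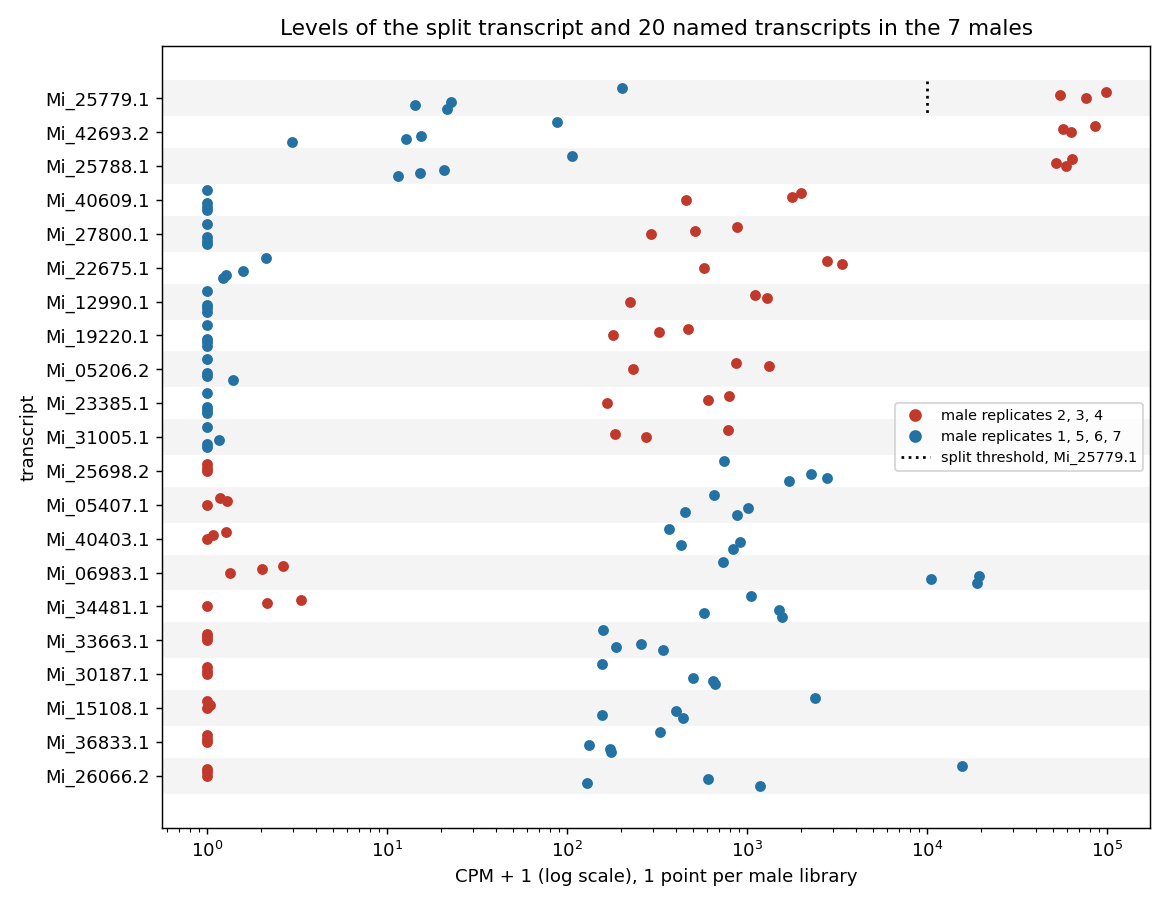
Levels of Mi_25779.1 and of 10 transcripts in each direction in the 7 males (CPM + 1, log axis), 1 point per library, with the split threshold drawn for Mi_25779.1 alone. Red points are male replicates 2, 3 and 4 and blue points male replicates 1, 5, 6 and 7, and the 2 colours do not overlap for any transcript, as the rule that chose them requires.

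The 2 lists were then read in comparisons of labelled stages that hold no male and so are independent of the split. In J4_moulting against J4, edgeR called 1651 of 32417 transcripts higher (5.09%) and 1106 lower (3.41%). Of the 352 transcripts lower in the high males, 168 were among those higher in J4_moulting, or 47.7% of the list, and 1 was lower. The share was 5.86% over all 24151 transcripts compared between the kinds, and the median log2 fold change was 3.51 over the list against -0.04 over all transcripts tested. Without male replicate 4 the list had 413 members, of which 46.0% were higher in J4_moulting than in J4, and 61.5% higher than in pre_J2. Of the 165 transcripts higher in the high males, 2 were higher and 8 lower in J4_moulting than in J4.

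In J4_moulting against pre_J2, 6974 of 34100 transcripts were higher (20.5%) and 2709 lower (7.94%). The list of 352 had 222 members higher in J4_moulting (63.1%) and 5 lower. The list of 165 had 56 members lower in J4_moulting (33.9%), against 7.58% of all transcripts compared between the kinds, and 13 higher (7.88%). Without male replicate 4 that list had 435 members, of which 28.0% were lower in J4_moulting than in pre_J2. The median log2 fold change was 5.14 for the 352 and -1.45 for the 165, against 0.72 for all transcripts tested. Both comparisons share the J4_moulting libraries.

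The lists were also counted library by library at a level of 10 CPM or more. Of the 165 transcripts, 155, 148 and 134 reached it in male replicates 2, 3 and 4 and 5 to 11 in the low males. In pre_J2 the number was 56 to 90, in J4_moulting 17 to 53, and in J4_female 21 to 50 apart from J4_female replicate 8, where it was 132. Of the 352 transcripts, 314 to 331 reached it in the low males and 21 to 29 in the high males. In J4_moulting the number was 166 to 289 and in pre_J2 44 to 70, and the highest J4 library, J4 replicate 5, held 187. The stage other than male with the highest median was J4_moulting for 255 of the 352 and pre_J2 for 76 of the 165. The highest single library outside the males was J4_female replicate 8 for 55 of the 165 and pre_J2 replicate 1 for 33.

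**Figure D4:**
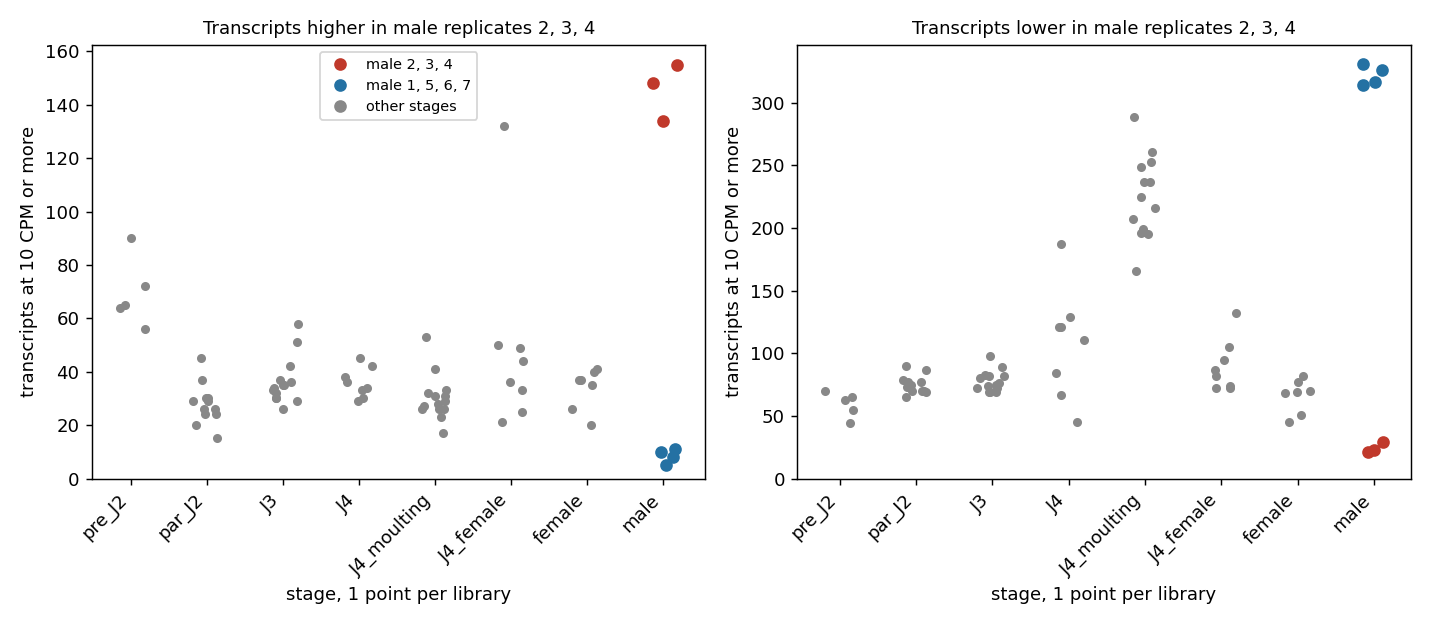
Number of transcripts at 10 CPM or more in each of the 75 libraries, for the 165 transcripts higher (left) and the 352 lower (right) in male replicates 2, 3 and 4, with stages on the x axis and 1 point per library. Among other stages the left list is widest in pre_J2 and in J4_female replicate 8 (132 transcripts), and the right list in J4_moulting (166 to 289).

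Lists that mark a stage were made without any male library, by asking that a transcript be higher in that stage than in each of the other 6 stages (edgeR, adjusted p under 0.05 and at least 2-fold). The 609 transcripts that mark J4_moulting held 21.2, 13.6, 9.79 and 14.5% of the counts of male replicates 1, 5, 6 and 7. In male replicates 2, 3 and 4 they held 0.357, 0.452 and 1.90%. The J4_moulting libraries themselves ranged from 7.94 to 39.97% with a median of 20.6%, and no library of another stage outside the males exceeded 2.21%. The low males lay within the range of the J4_moulting libraries and the high males within that of the remaining stages. Of the 472 members with a mean of 1 CPM over the males, 242 lay below every low male in all high males (51.3%) and 0 above, against 18.4% and 3.18% of all transcripts compared. With TMM factors the counts were 209 (45.2%) and 1, against 7.63% and 5.90%. Without male replicate 4, on the CPM scale, they were 263 (54.6%) and 6 (1.24%), against 28.9% and 6.996%. The count above, 0 with all males, became 5 without male replicate 1 (1.16%, against 4.45% of all transcripts compared). It became 1 without male replicate 2 or 3 (0.210 and 0.211%, against 4.32 and 3.94%). At 10 CPM or more, 110 members were found in all 4 low males and in no high male, 0 in the opposite arrangement and 22 in all 7 males. The highest members in male replicate 4 were Mi_18804.1 at 4685 CPM and Mi_30433.1 at 4253 CPM, both picked out after their values were seen.

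The 5 members that are most abundant in J4_moulting were at 229 CPM or less in male replicates 5, 6 and 7. Mi_41897.1 reached 81864 CPM in 1 J4_moulting library (median 129 CPM) and stood at 0.543, 19.1, 16.4 and 4.63 CPM in the low males and 0 in the high males. Mi_15580.1 was similar, with a J4_moulting median of 62.7 CPM and no male above 18.9 CPM. Mi_04026.1 had a J4_moulting median of 9229 CPM, and it stood at 14010 CPM in male replicate 1 but at 213, 54.9 and 139 CPM in male replicates 5, 6 and 7, and at 62.3, 470 and 0 CPM in the high males. Mi_05756.1 and Mi_00267.1 stood at 1818 and 1335 CPM in male replicate 1, at 44.7 to 229 CPM in the other low males and at 0.614 CPM or less in the high males. Male replicate 1 was thus the highest low male for Mi_04026.1, Mi_05756.1 and Mi_00267.1, and the lowest for Mi_41897.1 and Mi_15580.1. In male replicates 5 and 7 the J4_moulting share was led by Mi_06983.1 and Mi_38777.1, both of which also mark male.

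The 923 transcripts that mark pre_J2 did not divide the males in the same way. They held 4.95, 3.88 and 3.00% of the counts of the high males and 1.94, 2.76, 3.51 and 3.17% of those of the low males, so the kinds overlapped. The pre_J2 libraries themselves held 49.5 to 58.5%. Of the 618 members with a mean of 1 CPM over the males, 81 lay above all low males in the high males (13.1%) and 59 below (9.55%), against 3.18% and 18.4% of all transcripts compared. With TMM factors they were 97 (15.5%) and 26 (4.16%), against 5.90% and 7.63%. The 81 became 125 without male replicate 4 (20.1%, against 6.996% of all transcripts compared). The 59 became 116, 111 and 89 without male replicates 1, 2 and 7 (19.0, 18.8 and 14.5%). Over all transcripts 25.5, 23.2 and 24.3% lay below in these settings, so the list stayed under that share. The most abundant members of the pre_J2 list were low in all males. Mi_00245.1, with a pre_J2 median of 68387 CPM, stood at 0.418 to 7.82 CPM in the 7 males, and Mi_26420.1 and Mi_00602.1 at 1.29 CPM or less. Mi_05723.2 was the highest of them, at 51.7, 46.6 and 0 CPM in male replicates 2, 3 and 4 and 10.995, 6.21, 39.3 and 0 CPM in male replicates 1, 5, 6 and 7. The 165 transcripts shared 30 with this list, 18.2% of the 165 and 3.25% of the 923.

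Transcripts that mark male as labelled did not all go in 1 direction between the kinds. The list of 1224 was made from all 7 males against each other stage, so 1 kind alone could bring a member into it. It held 26.3, 33.3 and 16.3% of the counts of the high males and 22.7, 19.4, 27.4 and 19.2% of those of the low males, so its total overlapped. In the high males 189 members lay above all low males (15.4%) and 89 below (7.27%), against 3.18% and 18.4% of all transcripts compared. On the CPM scale, 21.5% of all transcripts compared did not overlap in either direction, a share near that of the list. The list stood further from all transcripts with TMM factors and without male replicate 4, as given below. Its members were chosen with these same males, so no conclusion is drawn from these shares. The median of the high males was the higher for 838 members and the lower for 385, with a median log2 ratio of 1.19 over the list and -0.76 over all. With TMM factors 349 lay above (28.5%) and 62 below (5.07%), against 5.90% and 7.63% of all transcripts compared. The 189 became 464 and 328 without male replicates 4 and 6 (37.9 and 26.8%, against 6.996 and 4.66% of all transcripts compared). The 89 became 166 and 185 without male replicates 1 and 4 (13.6 and 15.1%, against 25.5 and 28.9%). At 10 CPM or more, 438 of the 1224 were found in all 7 males, 14 in all high males and no low male, and 30 in all low males and no high male, which without male replicate 4 became 34 and 41 for the last 2. Of the 5 most abundant members, 1 was present at a high level in both kinds. Mi_29375.1 stood at 13228, 10933 and 5471 CPM in the high males and 2736, 1750, 5054 and 1484 CPM in the low males. It was also present in every library of the other stages, at 1949 to 3728 CPM in par_J2. The other 4 were high in low males only, unlike most of the list. Mi_44215.1 stood at 930, 14281, 7629 and 14174 CPM in male replicates 1, 5, 6 and 7 against 1.44, 9.99 and 5.94 CPM in the high males. Mi_37669.1 stood at 115, 14692, 7430 and 13856 CPM against at most 6.40 CPM. Mi_38777.1 ranged from 30.0 CPM in male replicate 1 to 25685 CPM in male replicate 7 and did not exceed 3.27 CPM in a high male, and Mi_06983.1 has been given above.

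The position of each male was measured by the Pearson correlation of its log2(CPM + 1) values with the centroid of each stage, over the 2000 transcripts most variable among the 68 other libraries. The correlation with J4_moulting was 0.66, 0.60, 0.56 and 0.55 for male replicates 1, 5, 6 and 7, and 0.24, 0.27 and 0.21 for male replicates 2, 3 and 4. The J4_moulting libraries had 0.54 to 0.80. With pre_J2 the low males had -0.02, -0.02, 0.04 and -0.02 and the high males 0.22, 0.22 and 0.12. The pre_J2 libraries had 0.85 to 0.90, and the remaining libraries outside the males at most 0.08. Over these 2000 transcripts the high males thus had the highest correlations with pre_J2 among the libraries that are not pre_J2, but that order depended on the transcripts and the measure. Over all transcripts with 10 counts or more in at least 5 libraries the kinds overlapped, with 0.57, 0.55 and 0.45 for male replicates 2, 3 and 4 and 0.55, 0.52, 0.56 and 0.52 for male replicates 1, 5, 6 and 7. With Spearman correlation male replicate 4, at 0.16, lay below male replicate 6, at 0.17.

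A projection on the line from the pre_J2 centroid at 0 to the J4_moulting centroid at 1 gave 0.87, 0.81, 0.76 and 0.80 for male replicates 1, 5, 6 and 7 and 0.53, 0.55 and 0.54 for male replicates 2, 3 and 4. J3, J4, J4_female, female and par_J2 lay at 0.63 to 0.79 on the same line, so only the high males were on the pre_J2 side of all these stages. The stage outside the males with the highest correlation was J4_moulting for the 4 low males and J4_female for the 3 high males, at 0.38, 0.45 and 0.40 for male replicates 2, 3 and 4. These nearest stages were the same over all transcripts with 10 counts or more in at least 5 libraries, with 500 transcripts, with Spearman correlation and with TMM factors over all libraries. J4_female replicate 8 had the highest correlation of any library outside the males with the centroid of the high males, at 0.47.

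**Figure D5:**
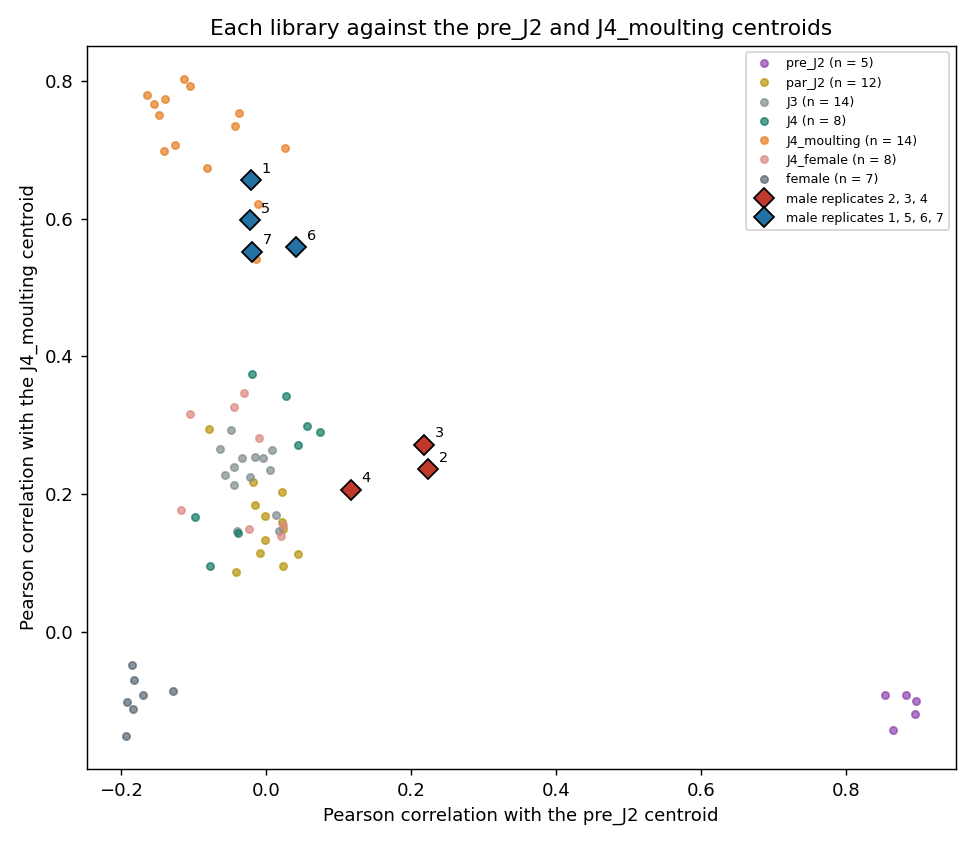
Pearson correlation of each library with the pre_J2 centroid (x axis) and with the J4_moulting centroid (y axis) over 2000 transcripts, with the males as diamonds labelled by replicate number and other stages as points. The low males lie at 0.55 to 0.66 on the y axis beside J4_moulting, and the high males lie at 0.21 to 0.27 on the y axis and 0.12 to 0.22 on the x axis, apart from all stages.

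The kinds were not 2 uniform clusters. Over the 24151 transcripts, pairs of high males correlated at 0.62 to 0.86, pairs of low males at 0.59 to 0.77 and pairs of 1 high and 1 low male at 0.40 to 0.70 (Pearson r of log2(CPM + 1), 3, 6 and 12 pairs, across transcripts of libraries that differ in composition). Male replicate 1 correlated with its own kind at 0.60, 0.77 and 0.59 (male replicates 5, 6 and 7) and with the high males at 0.64, 0.68 and 0.54 (male replicates 2, 3 and 4). Male replicates 2 and 3 were the closest pair, at 0.86. Within its kind, male replicate 4 had 1910 transcripts at least 4-fold above and 3506 at least 4-fold below both other high males. For the other males the numbers ran from 295 to 577 above and from 100 to 1042 below all others of the same kind. No pair of males was a repeat of 1 library by its counts.

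The labelled comparisons of male with other stages hold both kinds, and not all of their calls were made again when 1 kind was left out, which also left fewer libraries in the fit. In male against J4_moulting, edgeR called 3417 of 31948 transcripts higher in male (10.7%) and 5212 lower (16.3%). Of the 3417, 2309 were called again without the high males and 2450 without the low males, whereas 134 changed direction without the high males and 78 without the low males. Mi_25779.1 had a log2 fold change of 5.73 (SE 1.60) and Mi_25698.2 one of 5.70 (SE 1.76). Both were chosen by their levels in these same males, so they are given without a p-value. Their fold changes with 1 kind left out carry no further evidence either. Mi_29375.1, present in both kinds, had a log2 fold change of 2.22 (SE 0.58). It was named from the male-marking list, which already asks that male be higher than J4_moulting. It is therefore also given without a p-value. The J4_moulting libraries ran from 873 to 3829 CPM of it, a range that held male replicates 1, 5 and 7. The high males and male replicate 6 lay above that range. Of the 5212 lower calls, 2817 were called again without the high males and 2343 without the low males, and none changed direction in either setting.

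In male against pre_J2, 2366 of 25331 transcripts were higher in male (9.34%) and 1761 lower (6.95%). Without the high males 1339 of the 2366 were called again, and without the low males 884 were, with 1974 tested again in each setting. Of the 1761 lower calls, 1155 were called again without the high males and 569 without the low males. The next values are a description without p-values, since levels in these same males chose the transcripts. Mi_25779.1, Mi_42693.2, Mi_25788.1 and Mi_17692.2 were not among the calls against pre_J2, where the log2 fold change of Mi_25779.1 was 3.69 (SE 2.04). Mi_40609.1 was not among them either (0.66, SE 2.16). For Mi_06983.1, abundant in male replicates 5, 6 and 7, the log2 fold change of male over pre_J2 was 9.18 (SE 2.96).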

How the data were processed

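Messenger RNA of single nematodes was sequenced after Smart-seq2 amplification, per the series' design text. HISAT2 2.2.1 and StringTie 2.2.1 are named in the submitters' processing notes. Build, annotation, counting and strand: not given in the sources used here. The authors deposited 2 tables of whole-number counts per transcript, not normalized, and the full one (45378 transcripts) was used. Its totals ran from 3265447 to 40174566 counts over the 75 libraries. The filtered one (22287 transcripts) served as an alternative. Groups came from the library titles. The males were split at 10000 CPM of Mi_25779.1, and transcripts with a mean of 1 CPM over the 7 males were compared by their values per library, without a test. Labelled stages were compared pairwise with edgeR 4.0.16 in R 4.3.3 (filterByExpr, TMM, robust quasi-likelihood test), with calls at an adjusted p (Benjamini-Hochberg) below 0.05 and a log2 fold change, first stage over second, of 1 or more in size. SE is the log2 fold change divided by the root of its F value. Male marking used all 75 libraries. The fits were tested on simulated counts. DESeq2 1.42.0, other scalings, filters, pseudocounts and left-out libraries were the alternatives. Descriptions used numpy 2.4.6 and pandas 2.3.3 in Python 3.11.15, and figures matplotlib 3.10.9.

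Named transcripts are Mi_25779.1 and those of gene Mi_42693, the 10 with the largest nearest-library ratio in each direction (mean of at least 10 CPM), the 5 most abundant marking male, J4_moulting and pre_J2, and the 5 most correlated with Mi_25779.1 in J4_moulting, 1 per gene; not all are printed. The members, lists and rules were chosen with earlier results of these data known. Without molecular identifiers, floors and counting intervals cover counting error only. Same-numbered libraries did not deviate together (1 of 7 pairs of male and J4_moulting, 0 of 5 of male and pre_J2, 0 of 5 of J4_moulting and pre_J2 and 2 of 8 of J4_moulting and J4 correlated above 0.1), so the replicate number was not taken as a pairing.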

Additional observations from a re-analysis of the deposited data

Results flagged for a closer look

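In a group of 4 to 10 libraries, 1 library is named here when it lies far from the others. Its distance to the nearest other library is then a large part of the group's whole range. For normally distributed values chance gives this in about 1 of 20 groups. The CPM values are skewed, and many related transcripts chosen from these data were examined, so that rate does not hold here. No explanation was tested.

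J4_female replicate 8 stood above the other 7 J4_female libraries in many transcripts of the high males. It held 6269 CPM of Mi_25779.1, 6271 CPM of Mi_17692.2, 89.4 CPM of Mi_42693.1, 822 CPM of Mi_40609.1, 529 CPM of Mi_27800.1, 1708 CPM of Mi_22675.1, 799 CPM of Mi_12990.1, 304 CPM of Mi_05206.2, 516 CPM of Mi_23385.1 and 73.6 CPM of Mi_31005.1. It also had 132 of the 165 transcripts higher in the high males at 10 CPM or more, and the highest of the other J4_female libraries had 50. J4_female replicate 1 was close to it for Mi_42693.2 (5421 against 6430 CPM) and Mi_25788.1 (4869 against 5643 CPM). Mi_19220.1 was highest in J4_female replicate 6, at 161 CPM. By share of counts in the 165 transcripts, J4_female replicate 3 (4.21%) was above replicate 8 (3.48%).

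Male replicate 1 stood above the other 6 males in Mi_15108.1 at 2363 CPM, Mi_26066.2 at 15588 CPM, Mi_04026.1 at 14010 CPM, Mi_05756.1 at 1818 CPM and Mi_00267.1 at 1335 CPM. The last 3 are among the most abundant transcripts that mark J4_moulting.

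Male replicate 2 stood above the other males in Mi_31005.1, at 785 CPM. Male replicate 6 did so at very low levels, at 1.29 CPM of Mi_26420.1 and 0.876 CPM of Mi_00602.1. Male replicate 4 stood below the other males in the number of transcripts detected, at 18969, and at 17351 after thinning.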

How the results depend on the processing

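The counts of non-overlapping transcripts depended on the scaling. Those higher in the high males moved from 769 to 1423 with TMM factors, 1613 with DESeq2 size factors and 378 in the filtered table, and those lower moved from 4434 to 1841, 1655 and, without the 4 most abundant transcripts in the total, 2800. Leaving out each male in turn gave 844 to 1703 higher and 5056 to 7028 lower, with male replicate 4 behind 1703 and 7028. The 4-fold lists of 165 and 352 became 261 and 599 with a pseudocount of 0.1 CPM, 53 and 131 with 10 CPM, 315 and 997 at 2-fold, 70 and 214 in the filtered table, and 174 to 435 and 404 to 653 with 1 male left out, with male replicate 4 behind 435 and male replicates 1 and 3 behind 653 and 537. Splits at 5000 and 20000 CPM gave the same kinds. Counting the stage-marking and male-marking lists without each male was an alternative chosen after seeing the data. The rule compares every library of a kind, so leaving out a male or asking for 2-fold makes it easier to meet. All 165 and 352 members stayed in the lists in these settings. The cause of the size of these moves was not tested.

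The replicate number as a replicate block, although it does not pair the samples, gave 2039 calls higher in male against J4_moulting, 739 higher and 616 lower in male against pre_J2, 1392 and 709 in J4_moulting against pre_J2 and 648 and 188 in J4_moulting against J4. With this block 28.7% of the 352 were higher in J4_moulting than in J4 (2.00% of all transcripts tested) and 21.8% of the 165 were lower in J4_moulting than in pre_J2 (2.08% of all). At 2-fold, 30.1% of the longer lower list were higher in J4_moulting than in J4. With 1 male left out that share was 35.4 to 47.0%, the share of the lower list higher in J4_moulting than in pre_J2 was 48.5 to 61.9%, and the share of the higher list lower there was 28.0 to 33.9%.

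DESeq2 called 8717 transcripts lower in male than in J4_moulting, 4501 higher and 2998 lower in male than in pre_J2, and 2123 lower in J4_moulting than in J4. Without a low-count filter 8578 were lower in male than in J4_moulting, and the filtered table gave 2481. The filtered table gave 1106 lower in male than in pre_J2, a single fit of all 75 libraries gave 7998 higher and 6449 lower, and the fit without the low males gave 1084 and 657. Leaving out 1 male gave 3194 to 3627 higher and 4974 to 5917 lower against J4_moulting, and 1621 to 2493 higher and 1367 to 1668 lower against pre_J2.

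The next values are a description, since Mi_25779.1 made the split and most of the other transcripts were named for their gap between the kinds, which fixes how they move when 1 kind is left out. In male against J4_moulting, leaving out the high males turned the log2 fold change to -3.78 for Mi_25779.1, -5.21 for Mi_42693.2, -5.35 for Mi_25788.1, -3.33 for Mi_17692.2, -6.37 for Mi_27800.1 and -6.47 for Mi_23385.1, and the replicate block gave -0.54 for Mi_27800.1. Leaving out the low males turned it to -11.29 for Mi_25698.2, -8.15 for Mi_06983.1, -10.26 for Mi_30187.1, -5.72 for Mi_38777.1 and -5.16 for Mi_44215.1. In male against pre_J2 the values without the low males were -2.50 for Mi_06983.1 and -0.56 for Mi_44215.1. In 102 further cases a named fold change lost its call in 1 of the fits without a change of direction. The depth limits the low end, where a transcript without a read in a kind has only a bound.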
